A study of Mus musculus with 30 samples.

Results

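A set of 10 genes with known roles in the germline was followed here: the piRNA pathway genes Piwil2, Mael and Asz1, the RNA-binding protein genes Ddx4 and Dazl, the meiotic chromosome genes Sycp3, Smc1b, Stag3 and Hormad1, and the meiotic entry gene Stra8. They were taken by name as 10 of the 22477 genes of an expression table of mouse secondary iPSCs. All cells derived from iPSCs that carried dox-inducible OSKM (Oct4, Sox2, Klf4 and c-Myc), a Nanog::GFP reporter and a constitutive nuclear RFP. In the reporter, GFP stands in place of a Nanog allele, so the cells were heterozygous for Nanog. The cells without dox carried the same alleles as those with it. Before withdrawal, the iPSCs had been maintained in serum/LIF and then kept in 2i/LIF for at least 24 h. In 2i/LIF, 2 kinase inhibitors and LIF hold cells in naive pluripotency. The cells then differentiated through 2i/LIF withdrawal lasting 0, 24, 36, 48, 60, 72 or 96 h. In a second set, cells withdrawn for 0, 24, 48 or 96 h returned to serum/LIF medium for another 48 h, either with dox, which switches OSKM on (+dox), or in its absence (–dox). These are 15 conditions and 30 samples, with 2 replicates in each condition. The iPSCs were grown on mouse embryonic fibroblast feeders before 2i/LIF. In the study's colony assay the re-seeded cells were plated on such feeders, and the sources do not say whether those taken for RNA-seq were.

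Germline genes are active in germ cells and silent in most somatic cells, where methylation of their CpG-rich promoters and the PRC1.6 repressor complex keep them off. In PRC1.6, MGA with MAX binds E-box motifs and E2F6 with its partner DP1 binds E2F motifs. Naive pluripotent cells, whose DNA is hypomethylated, are known to transcribe part of this group without being germ cells. Meiotic cells replace several cohesin subunits by meiotic paralogues, and pre-meiotic and meiotic male germ cells use piRNAs against transposons.

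Promoter sequence was examined because PRC1.6 is known to reach germline genes through these motifs. RefSeq (GRCm38.p6, the same build as mm10) gave a promoter for 9 of the 10 genes, all but Piwil2, and the 250 bases before the start site were read on both strands. The E-box CACGTG, which reads the same on either strand, was present in 5 of these 9 promoters (55.6%), against 6.05% of all 27025 promoters and 9.58% of the 9320 promoters with an observed-to-expected CpG ratio of at least 0.6. Those 5 promoters are shown with the E-box in capitals, 5′ to 3′ towards the gene.
Hormad1: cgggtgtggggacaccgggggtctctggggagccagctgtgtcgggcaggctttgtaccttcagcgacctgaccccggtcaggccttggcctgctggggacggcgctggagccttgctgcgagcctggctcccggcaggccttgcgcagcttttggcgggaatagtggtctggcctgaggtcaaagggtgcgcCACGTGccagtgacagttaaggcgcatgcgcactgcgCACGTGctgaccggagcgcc
Sycp3: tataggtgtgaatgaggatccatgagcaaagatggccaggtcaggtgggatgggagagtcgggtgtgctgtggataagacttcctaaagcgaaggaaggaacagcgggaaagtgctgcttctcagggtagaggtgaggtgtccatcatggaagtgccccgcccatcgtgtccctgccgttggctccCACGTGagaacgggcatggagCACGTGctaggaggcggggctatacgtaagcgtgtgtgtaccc
Ddx4: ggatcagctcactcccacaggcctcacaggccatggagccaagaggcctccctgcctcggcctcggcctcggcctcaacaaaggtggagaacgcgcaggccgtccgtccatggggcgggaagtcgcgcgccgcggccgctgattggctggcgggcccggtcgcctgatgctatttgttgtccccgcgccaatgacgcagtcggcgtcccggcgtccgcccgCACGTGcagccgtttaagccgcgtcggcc
Mael: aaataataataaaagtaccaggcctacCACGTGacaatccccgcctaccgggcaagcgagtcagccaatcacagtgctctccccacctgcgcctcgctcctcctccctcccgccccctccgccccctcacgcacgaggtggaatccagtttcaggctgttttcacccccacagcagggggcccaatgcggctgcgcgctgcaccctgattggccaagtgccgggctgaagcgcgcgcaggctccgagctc
Stag3: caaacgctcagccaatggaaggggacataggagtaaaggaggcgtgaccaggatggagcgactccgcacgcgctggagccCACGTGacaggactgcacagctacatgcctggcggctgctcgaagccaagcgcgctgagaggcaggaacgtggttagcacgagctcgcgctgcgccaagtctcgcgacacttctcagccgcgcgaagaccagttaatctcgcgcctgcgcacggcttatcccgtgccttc
The window of Hormad1 spans chr3:95559427-95559676 on the plus strand and that of Sycp3 chr10:88459337-88459586 on the plus strand. The Ddx4 window is chr13:112652311-112652560 on the minus strand. Mael was read at chr1:166238745-166238994 on the minus strand, and Stag3 at chr5:138280259-138280508 on the plus strand. Start sites here are those of RefSeq, which differ from the Gencode gene bounds given below for several members. By those bounds the windows of Stag3 and Stra8 lie wholly inside the gene. That of Ddx4 does so in part, with its E-box, and those of Dazl, Mael, Smc1b and Sycp3 overlap the gene by fewer bases. Hormad1 and Sycp3 each hold 2 E-boxes, which begin 57 and 20 bases before the start site in Hormad1 and 64 and 43 bases before it in Sycp3. The single E-box begins 29 bases before the start in Ddx4, 170 in Stag3 and 223 in Mael.

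The E2F core GCGGGA (either strand) was found in 5 of the 9 promoters, those of Ddx4, Hormad1, Mael, Smc1b and Sycp3. It was present in 16.9% of all promoters and in 37.4% of those with the higher CpG ratio. The longer form TTCCCGCC, which contains the core, was found in Hormad1 and Ddx4, in 1.88% of all promoters and in 4.12% of those with the higher CpG ratio. The 9 promoters had a median CpG ratio of 0.75, against 0.378 for all promoters. Smc1b had the highest ratio, 1.21, and Stra8 the lowest, 0.267. Asz1, Dazl and Stra8 had none of these letters in the window. Of the other germline genes, 5 of 15 piRNA pathway promoters and 2 of 16 meiotic chromosome promoters held the E-box, and 2 and 8 of them the E2F core. A match is a stretch of letters and not a bound site. The table holds no binding or methylation values.

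**Figure D1:**
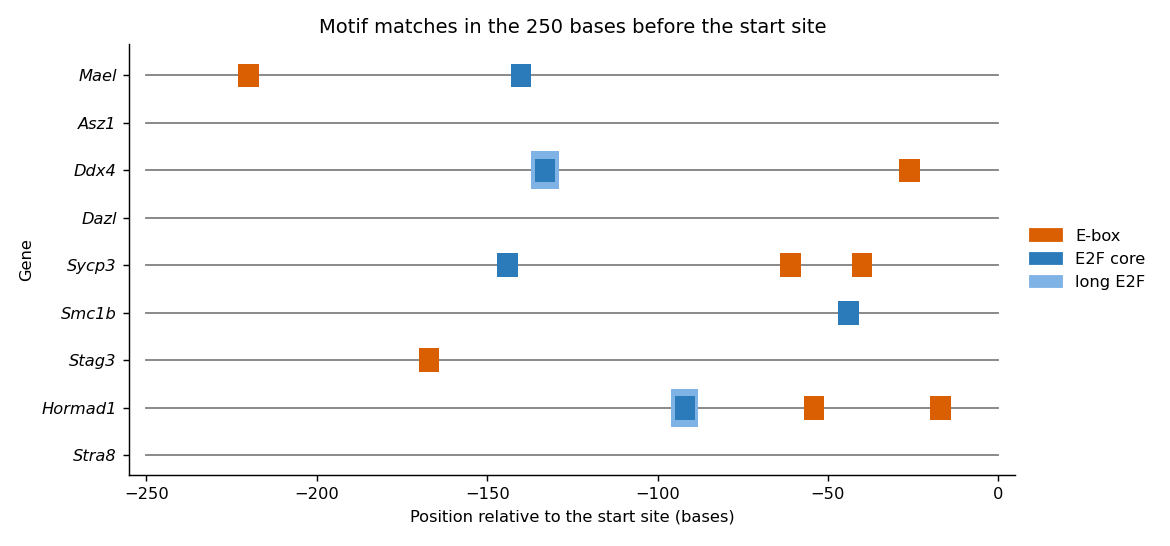
Matches to the E-box, the E2F core and the longer E2F form in the 250 bases before the start site of the 9 genes with a RefSeq promoter, with position in bases on the horizontal axis and 1 line per gene. Hormad1 and Sycp3 each show 2 E-boxes within 64 bases of the start, and Asz1, Dazl and Stra8 show no match.

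Each value is 1 FPKM (fragments per kilobase of transcript, scaled to library size) per condition, in which the authors had combined the 2 replicates. No replicate spread can be given, so no difference was tested and no p-value is printed. A gene was called higher or lower where the ratio of 2 conditions was at least 2 and the higher value at least 1 FPKM. Each share of members called is set beside the share of all genes that reached 1 FPKM in either condition. Members were chosen with earlier results of these data known, so the shares describe them and test nothing. Read counts are unknown, but the steps between low values give a rough relative depth. A 2 kb gene at 1 FPKM stood at 29.1 to 46.4 steps in the withdrawal timepoints. Re-seeded cells from the 0 and 24 h starts were deeper, with 85.1 to 98.7 steps, and those from the 48 and 96 h starts had 30.6 to 39.0 steps. In bulk RNA, fewer cells that express a gene and less RNA per cell cannot be told apart.

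Of 9 pluripotency markers, 5 were called lower than at 0 h at 24 h of withdrawal, 8 from 36 to 72 h and all 9 at 96 h. Pou5f1 (Oct4), the last to be called, stood at 199, 279, 217, 205, 139, 123 and 25.5 FPKM over the 7 withdrawal timepoints. After re-seeding without dox it stood at 359.6, 213, 72.6 and 2.63 FPKM for cells from 0, 24, 48 and 96 h. Nanog was at 227, 46.5, 9.18, 6.45, 21.7, 38.9 and 14.5 FPKM over the withdrawal timepoints and at 2.13 FPKM in 96 h –dox cells. The 96 h conditions thus had low pluripotency markers, and the term pluripotent does not describe their cells. The 0 h timepoint stood apart by its fibroblast markers. The summed level of 12 fibroblast markers was 802 FPKM at 0 h, 75.04 at 24 h, between 21.8 and 40.8 from 36 to 96 h, and 6.68 in 0 h –dox cells. The most abundant, the collagen gene Col1a1, was at 229 FPKM at 0 h and 20.96 at 24 h, and 11 of the 12 were at 1 FPKM or more at 0 h. For that reason the comparisons of the members with 0 h are also given against 24 h, a choice made after the markers were seen. The part of feeder RNA in the 0 h values of the members was not tested.

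Members differed widely in level, on a scale that allows for transcript length. At 0 h Dazl stood first at 39.2 FPKM, followed by Hormad1, Stag3 and Sycp3 between 11.05 and 14.8 FPKM, Smc1b at 5.13 and Mael at 3.41. Piwil2, Stra8, Ddx4 and Asz1 stood between 1.09 and 1.93 FPKM. All 10 reached 1 FPKM somewhere, although Asz1 did so at 0 and 24 h only. Over the withdrawal timepoints 9 of 10 differed by 2-fold or more between some pair, all but Smc1b, where 60.7% of all genes at 1 FPKM did. Over the 15 conditions all 10 did, where 85.9% of all such genes did, so differing between some pair of conditions does not set the members apart.

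**Figure D2:**
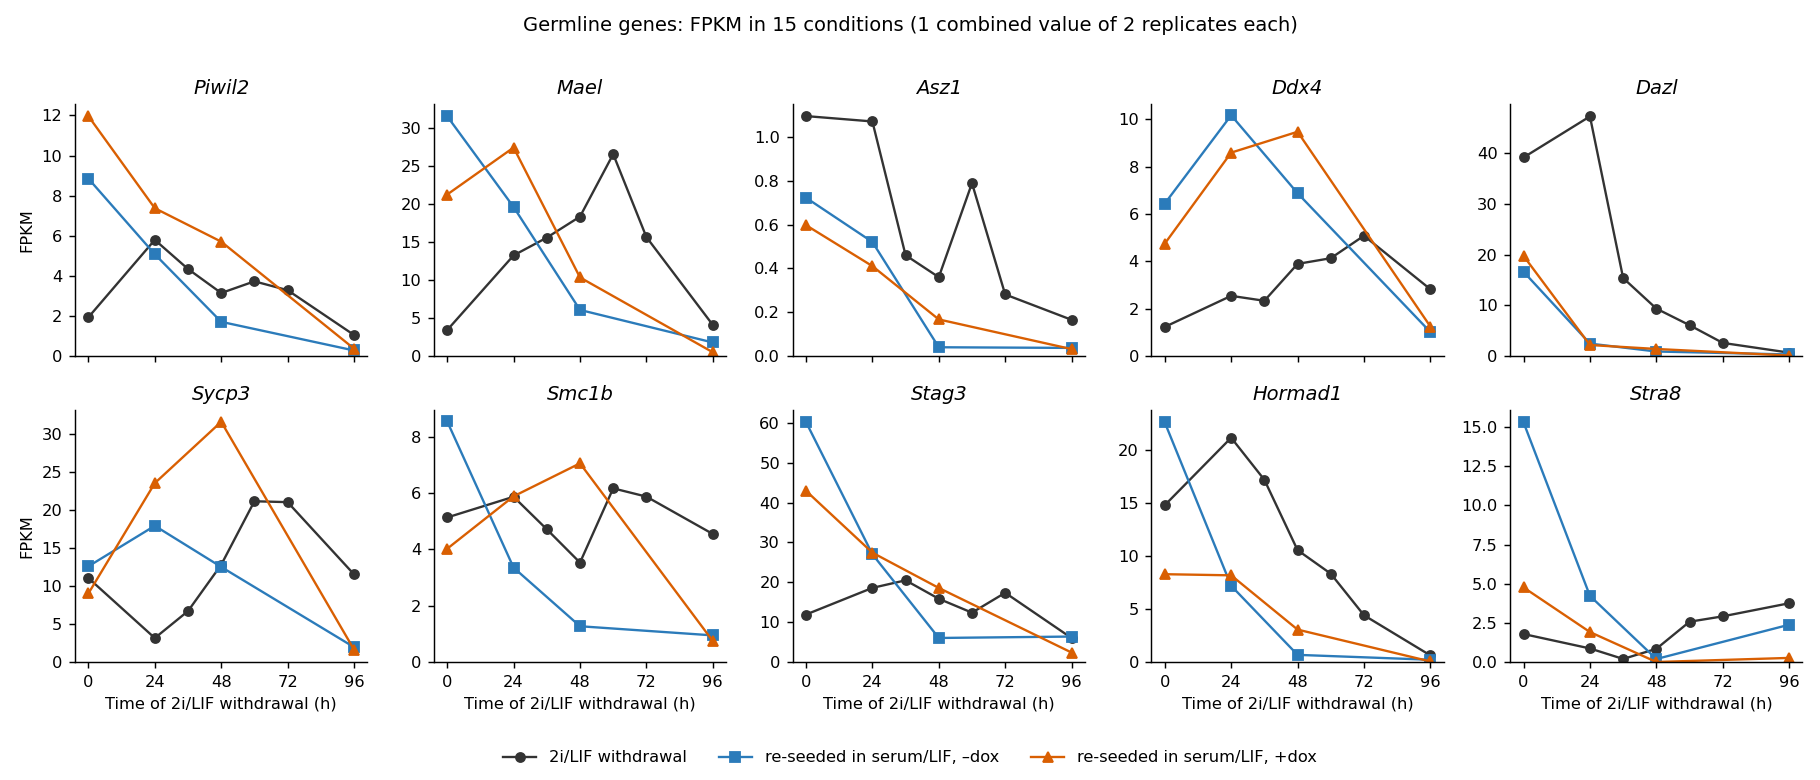
FPKM of the 10 genes (1 panel each, own linear scale from 0) against hours of 2i/LIF withdrawal, with black circles for the withdrawal timepoints, blue squares for –dox and orange triangles for +dox cells, each point 1 combined value of 2 replicates. Dazl and Hormad1 are highest at 24 h and low at 96 h of withdrawal, Mael is highest at 60 h, and 0 h –dox cells hold the highest value of Mael, Smc1b, Stag3, Hormad1 and Stra8.

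The piRNA pathway members were low or middling at 0 h and did not share one course. Piwil2 (chr14:70372477-70429383, minus strand), a PIWI protein that carries piRNAs, stood at 1.93, 5.79, 4.34, 3.14, 3.72, 3.28 and 1.05 FPKM at 0, 24, 36, 48, 60, 72 and 96 h. Cells re-seeded from 0, 24, 48 and 96 h had 8.85, 5.08, 1.71 and 0.276 FPKM without dox and 11.96, 7.37, 5.70 and 0.368 FPKM with dox. Piwil2 was thus highest in the undifferentiated re-seeded cells, and its values in both 96 h re-seeded conditions were below every withdrawal timepoint. Mael (chr1:166201201-166238747, minus strand), a protein of the perinuclear granules where piRNAs are made, stood at 3.41, 13.2, 15.6, 18.3, 26.5, 15.6 and 4.08 FPKM over the same 7 timepoints. Its re-seeded values were 31.5, 19.6, 6.06 and 1.78 FPKM for –dox and 21.2, 27.4, 10.3 and 0.492 FPKM for +dox cells. Mael was highest at 60 h during withdrawal and highest of all in 0 h –dox cells, and the 0 and 96 h timepoints were its lowest of withdrawal. Asz1 (chr6:18050964-18109061, minus strand), an outer mitochondrial membrane protein of the same pathway, was close to the limit throughout, at 1.09, 1.07, 0.46, 0.36, 0.789, 0.281 and 0.165 FPKM during withdrawal. It was at 0.723, 0.52, 0.04 and 0.037 FPKM in –dox and 0.597, 0.41, 0.167 and 0.0315 FPKM in +dox cells. The values in the 48 and 96 h –dox and the 96 h +dox cells lie under 3 steps of depth and cannot be ranked.

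The RNA-binding protein genes Dazl and Ddx4 moved apart. Dazl (chr17:50279395-50293636, minus strand), which binds the 3′ end of germ cell mRNAs and promotes their translation, stood at 39.2, 47.3, 15.4, 9.36, 6.08, 2.59 and 0.667 FPKM over the 7 timepoints. It had 16.6, 2.45, 0.89 and 0.31 FPKM in –dox and 19.8, 2.17, 1.39 and 0.0902 FPKM in +dox cells from 0, 24, 48 and 96 h. The 2 earliest timepoints stood above every other condition, and each later timepoint was lower than the one before. Ddx4 (chr13:112598333-112652475, minus strand), the vasa homologue and an RNA helicase of germ granules, was at 1.23, 2.54, 2.33, 3.89, 4.13, 5.08 and 2.82 FPKM during withdrawal. Its re-seeded values were 6.44, 10.2, 6.88 and 1.01 FPKM without and 4.75, 8.60, 9.48 and 1.25 FPKM with dox. Ddx4 was lowest at 0 h among the timepoints, highest at 72 h, and higher than any timepoint in 24 and 48 h re-seeded cells of either arm. Between 0 and 72 h Dazl was 15.1-fold lower and Ddx4 4.13-fold higher. Across the 15 conditions they had the lowest correlation of the 45 member pairs (Pearson r = 0.06 of log2(FPKM + 0.1)).

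The meiotic chromosome members were expressed in most conditions. Sycp3 (chr10:88459569-88473236, plus strand), a component of the axial elements that become the synaptonemal complex, stood at 11.05, 3.15, 6.70, 12.8, 21.2, 21.04 and 11.5 FPKM over the withdrawal timepoints. It was at 12.6, 17.9, 12.5 and 1.95 FPKM in –dox and at 9.02, 23.5, 31.6 and 1.63 FPKM in +dox cells. Sycp3 was lowest at 24 h, the timepoint at which Dazl and Hormad1 were highest, and its highest value of all was in 48 h +dox cells. The gene overlaps Chpt1 on the other strand, which ranged from 3.97 to 20.3 FPKM, and the sources do not say whether strand was used in counting. Hormad1 (chr3:95559677-95587671, plus strand), which binds unsynapsed chromosome axes, was at 14.8, 21.2, 17.2, 10.6, 8.33, 4.41 and 0.62 FPKM during withdrawal. In re-seeded cells it was at 22.6, 7.19, 0.673 and 0.211 FPKM for –dox and 8.29, 8.18, 3.06 and 0.049 FPKM for +dox. Hormad1 was low at 96 h in every arm, and its value in 96 h +dox cells lies under 3 steps of depth. Its course was like that of Dazl (r = 0.92) and unlike that of Sycp3 (r = 0.45) over the 15 conditions.

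The meiotic cohesin subunits were read against their mitotic paralogues. Smc1b (chr15:85064689-85131964, minus strand), the meiotic counterpart of Smc1a, was the most even member, at 5.13, 5.87, 4.71, 3.53, 6.17, 5.87 and 4.55 FPKM during withdrawal. Its re-seeded values were 8.54, 3.35, 1.27 and 0.945 FPKM for –dox and 4.02, 5.88, 7.05 and 0.744 FPKM for +dox cells. The 7 timepoints lay within 1.75-fold of each other, while the –dox cells ranged 9.04-fold. As a percent of Smc1a it was 6.19 at 0 h, 17.2 in 0 h –dox cells and 1.14 in 96 h –dox cells. Stag3 (chr5:138280240-138312393, plus strand), the meiotic counterpart of Stag1 and Stag2, stood at 11.9, 18.6, 20.5, 15.9, 12.4, 17.4 and 6.005 FPKM over the timepoints. It had 60.2, 27.04, 6.03 and 6.38 FPKM in –dox and 42.96, 27.4, 18.6 and 2.36 FPKM in +dox cells. The 0 h re-seeded cells of both arms stood above every other condition. In 0 h –dox cells Stag3 was at 339% of the Stag1 level and 241% of the Stag2 level, that is, above both mitotic paralogues, while at 96 h of withdrawal it was at 23.7% and 8.79%. Rec8, the meiotic counterpart of Rad21 and not a member, took another course, with 17.3, 2.45, 3.95, 5.04, 16.99, 22.3 and 29.5 FPKM over the timepoints. It was highest at 96 h, where it reached 36.1% of Rad21. The 5 mitotic cohesin genes were all at or above 15.9 FPKM in every condition, and of them only Stag2 differed by 2-fold between 0 and 96 h of withdrawal, being higher at 96 h (68.3 against 18.7 FPKM), and none did between 24 and 96 h.

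Stra8 (chr6:34920163-34939344, plus strand), which retinoic acid induces in germ cells and which is needed for entry into meiosis, was lowest at 36 h and highest at 96 h of withdrawal. It was at 1.79, 0.865, 0.194, 0.841, 2.57, 2.91 and 3.75 FPKM at 0, 24, 36, 48, 60, 72 and 96 h. Re-seeded cells from 0, 24, 48 and 96 h had 15.3, 4.22, 0.19 and 2.38 FPKM without dox, and 0 h +dox cells had 4.76 FPKM. The +dox cells from 24 and 96 h had 1.91 and 0.26 FPKM, and Stra8 was listed at 0 in 48 h +dox cells. It was the only member whose withdrawal maximum came at 96 h, and its highest value, in 0 h –dox cells, was 8.57-fold above 0 h of withdrawal. Of 10 genes of retinoic acid metabolism and response, 6 were called higher and 1 lower at 96 h than at 0 h of withdrawal, and 5 higher and 1 lower than at 24 h. Of all genes, 16.8% were called higher and 16.4% lower against 0 h, and 20.5% and 16.3% against 24 h. Among the 10, the retinoic acid-degrading enzyme Cyp26a1 was at 0.0757 FPKM at 0 h and 17.6 at 96 h. In 0 h –dox cells, where Stra8 was highest, 1 of the 10 was called higher than at 0 h, the receptor gene Rarg (80.7 against 7.57 FPKM), and 2 lower, among them the retinoic acid-synthesising enzyme gene Aldh1a2. The shares of all genes were 12.0% higher and 10.1% lower. Rarg was at 75.8 FPKM at 24 h of withdrawal already, and Cyp26a1 was at 0.169 FPKM in 0 h –dox cells.

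During withdrawal, the comparison of each timepoint with 0 h asked which members had left their iPSC level. At 24 h Mael (3.88-fold), Piwil2 (2.999-fold) and Ddx4 (2.07-fold) were called higher, 3 of 10 against 8.64% of all genes. Sycp3 and Stra8 were called lower (3.51-fold and 2.07-fold), 2 of 10 against 14.3%. Ddx4 and Stra8 did not pass with a minimum of 5 FPKM, a fold of 3 or 1 FPKM added to both values. Piwil2 did not with a fold of 3, nor Stra8 with 1 FPKM asked of both values. From 36 to 96 h Mael was called higher at 4 of 5 timepoints, all but 96 h, and Ddx4 at 4 of 5, all but 36 h. With a minimum of 5 FPKM, Ddx4 was called at 72 h alone. Dazl was called lower at all 5 of these timepoints. Against 24 h the calls of Dazl were the same, while Mael was called higher at 60 h alone (2.01-fold) and Ddx4 at none (1.999-fold at 72 h).

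At 36 h Mael and Piwil2 were higher (11.3% of all genes) and Dazl, Asz1 and Stra8 lower (16.8%). At 48 h Ddx4 and Mael were higher (12.1%) and the same 3 lower (17.0%). At both timepoints Asz1 and Stra8 did not pass with a minimum of 5 FPKM or with 1 FPKM asked of both values. Piwil2 did not pass at 36 h with a minimum of 5 FPKM. With 1 FPKM added to both values, Asz1 was lost at both timepoints, Piwil2 at 36 h and Stra8 at 48 h. With a fold of 3, Dazl, Asz1 and Piwil2 were lost at 36 h and Stra8 at 48 h. The 60 h timepoint had Ddx4 and Mael higher (13.0%) and Dazl alone lower (16.1%). With 1 to 3 of 10 members called in each direction, these shares lie near those of all genes.

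At 72 h Ddx4 and Mael were higher (15.0% of all genes) and Dazl, Asz1 and Hormad1 lower (15.9%). The 72 h call of Asz1 was lost with a minimum of 5 FPKM and with 1 FPKM asked of, or added to, both values. At 96 h Ddx4 (2.29-fold) and Stra8 (2.10-fold) were called higher, 2 of 10 against 16.8% of all genes. Neither passed with a minimum of 5 FPKM, with a fold of 3, or with 1 FPKM added to both values. Dazl (58.7-fold), Hormad1 (23.9-fold) and Asz1 (6.63-fold) were called lower, 3 of 10 against 16.4%. None of these 3 passed where both values had to reach 1 FPKM, and Asz1 did not with a minimum of 5 FPKM or with 1 FPKM added to both values. On the log2(FPKM + 0.1) scale, the median difference of the 10 members from 0 h was 0.39, 0.05, -0.14, 0.38, 0.61 and -0.50 for the 24, 36, 48, 60, 72 and 96 h timepoints, against -0.01, -0.04 and -0.02 over all genes at 1 FPKM for 24, 72 and 96 h. These comparisons share the 0 h samples.

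Against 24 h, where the fibroblast markers were far lower, 6 of 10 members were called lower at 96 h (Dazl, Mael, Stag3, Asz1, Hormad1 and Piwil2), where 16.3% of all genes were, and Sycp3 and Stra8 higher, against 20.5%. Mael and Stag3 stood 3.24-fold and 3.10-fold lower at 96 h than at 24 h. All 9 pluripotency markers and 7 of 12 fibroblast markers were lower in the same comparison, and their part was not tested. Sycp3 was higher than at 24 h at each of the 5 later timepoints, by 2.13-fold at 36 h and 6.72-fold at 60 h. Stra8 was called higher at 60, 72 and 96 h. Hormad1 was called lower from 48 h on, and Asz1 at 36, 48, 72 and 96 h. The median difference of the members from 24 h was below 0 at each of them, at -0.30, -0.47, -0.16, -0.05 and -1.64 for 36, 48, 60, 72 and 96 h, so the sign differed from that against 0 h at 36, 60 and 72 h. Over all genes at 1 FPKM it was -0.04 and -0.02 for 72 and 96 h. The shares of all genes called against 24 h were 5.44% higher and 6.28% lower at 36 h, 8.59% and 8.21% at 48 h, 13.5% and 11.3% at 60 h, and 17.2% and 13.3% at 72 h.

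Undifferentiated cells returned to serum/LIF, the medium used before 2i/LIF, had higher levels of several members than iPSCs in 2i/LIF. In 0 h –dox cells Mael (9.25-fold), Stra8 (8.57-fold), Ddx4 (5.24-fold), Stag3 (5.06-fold) and Piwil2 (4.58-fold) were called higher than at 0 h, 5 of 10 members against 12.0% of all genes. Dazl alone was lower (2.36-fold, with 10.1% of all genes), and the median of the 10 was 1.43 on the log2 scale against -0.01. The fibroblast markers differed as well, 10 of 12 being lower in 0 h –dox cells, and their part in the result was not tested. Set against 24 h of withdrawal, with its lower fibroblast sum, 0 h –dox cells had higher Stra8 (17.7-fold), Sycp3 (3.996-fold), Stag3 (3.24-fold), Ddx4 (2.53-fold) and Mael (2.38-fold), 5 of 10 with 16.3% of all genes, and lower Dazl, with 9.83%. The median of the 10 was then 0.92. Piwil2 was 1.53-fold higher there, below the call. Against 24 h, too, 9 of 12 fibroblast markers were lower and 6 of 9 pluripotency markers higher, with none the other way. Their part was not tested. Medium, time in culture and depth all differ between the sets and cannot be told apart.

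After longer differentiation, fewer members were higher in serum/LIF without dox than before re-seeding. From 24 h, Ddx4, Sycp3 and Stra8 were called higher than at 24 h of withdrawal (4.001, 5.69 and 4.88-fold), against 14.9% of all genes. Dazl, Asz1 and Hormad1 were called lower, against 10.6%. From this start, Stra8 and Asz1 did not pass with a minimum of 5 FPKM or with 1 FPKM asked of both values. Asz1 and Hormad1 did not with a fold of 3, nor Asz1 with 1 FPKM added to both values. From 48 h no member was higher (15.3% of all genes) and Dazl, Mael, Smc1b, Stag3 and Hormad1 were lower, 5 of 10 against 11.5%. From 96 h again none was higher (12.4%) and 5 of 10 were lower (11.2%), namely Ddx4, Mael, Sycp3, Smc1b and Piwil2. Of these, Ddx4, Mael, Smc1b and Piwil2 did not pass with a minimum of 5 FPKM. Ddx4, Mael and Piwil2 did not with 1 FPKM added to both values. With no minimum, Dazl, Asz1 and Hormad1 were called lower as well. From 48 h, Dazl and Hormad1 did not pass with 1 FPKM asked of both values, nor Smc1b and Stag3 with a fold of 3. Cell state markers moved in the same comparisons, and their part was not tested. From 24 h, 8 of 12 fibroblast markers were lower, 1 of 9 pluripotency markers was lower and 2 of 8 two-cell-like markers were higher. From 48 h, 4 pluripotency markers were higher and 1 lower (Pou5f1), and 1 fibroblast marker was higher and 4 lower. From 96 h, 7 fibroblast markers were higher and 2 lower (Col1a2 85.97 against 13.6 FPKM), and 2 pluripotency markers were higher and 4 lower.

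Among –dox cells, many members were lower in cells that had been differentiated than in 0 h –dox cells. The count was 5 of 10 from 24 h (11.4% of all genes), 7 of 10 from 48 h (17.4%) and 9 of 10 from 96 h (21.7%), and none was higher (8.72%, 15.1% and 21.5%). Where both values had to reach 1 FPKM, the counts were 5, 4 and 5, without the increase. In 48 h –dox cells Hormad1 was 33.6-fold lower, Dazl 18.7-fold and Stag3 9.99-fold, while Sycp3 and Ddx4 were within 1.07-fold of their 0 h –dox values. In 96 h –dox cells Sycp3 and Ddx4 were lower too, by 6.45-fold and 6.37-fold. Asz1, the member not called, did not reach 1 FPKM in any re-seeded condition. The median of the 10 was -0.97, -2.61 and -3.13 from 24, 48 and 96 h, against -0.03, -0.02 and -0.02 over all genes at 1 FPKM. The 3 comparisons share the 0 h –dox samples. Of the 9 pluripotency markers 8 were also lower from 24 h and all from 48 and from 96 h. Of 12 fibroblast markers none was called from 24 h, 5 were higher from 48 h, and 7 were higher and 1 lower from 96 h (Col1a1 33.2 against 1.45 FPKM).

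**Figure D3:**
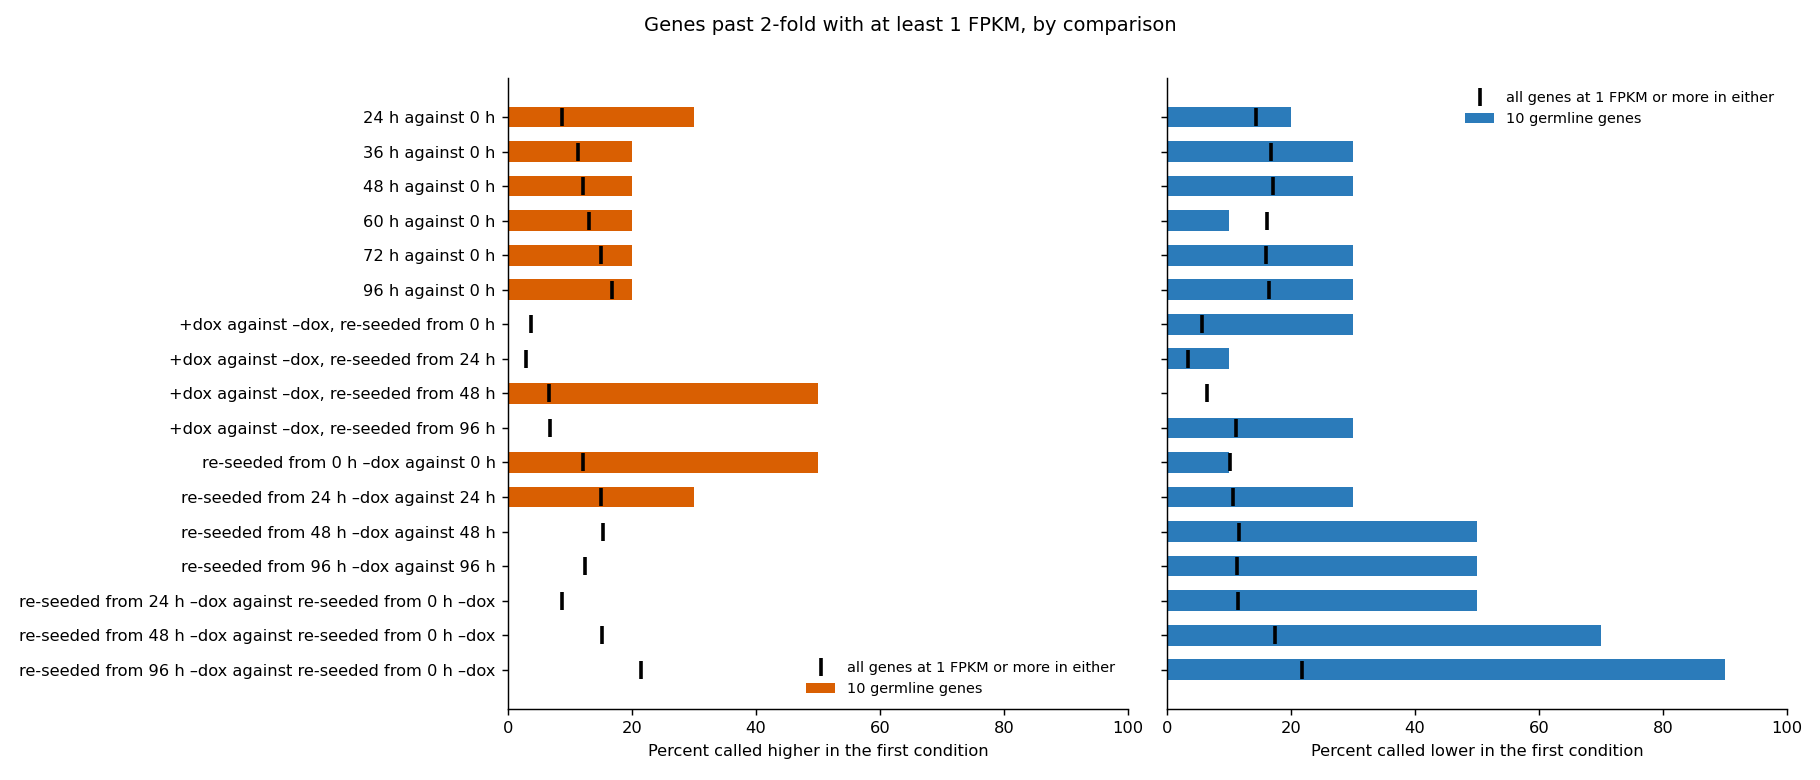
Percent of the 10 genes (bars) and of all genes at 1 FPKM or more in either condition (black marks) called higher (left) or lower (right) by at least 2-fold, for each comparison named on the vertical axis as first condition against second. On the left, 5 of 10 members are called higher for +dox against –dox cells from 48 h and for 0 h –dox cells against 0 h, on the right 9 of 10 are called lower for 96 h –dox against 0 h –dox cells, and the 24 to 96 h timepoints against 0 h have bars at 10% to 30%.

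The comparison of +dox with –dox cells asked how the members differed with OSKM at each start. The calls were for higher values from 48 h and for lower values from the other 3 starts. In cells from 48 h, Smc1b (5.56-fold), Hormad1 (4.54-fold), Piwil2 (3.34-fold), Stag3 (3.08-fold) and Sycp3 (2.53-fold) were called higher with dox, 5 of 10 members against 6.56% of all genes. Hormad1, at 3.06 against 0.673 FPKM, did not pass with a minimum of 5 FPKM or with 1 FPKM asked of both values, and Sycp3 did not with a fold of 3. None was called lower, against 6.46%. Asz1 was at 0.167 FPKM with and 0.04 FPKM without dox, the latter too close to 0 for a ratio. Mael, Dazl and Ddx4 were 1.70, 1.56 and 1.38-fold higher, below the call. Stra8, listed at 0 with dox and at 0.19 FPKM without, was the exception. With dox, Stag3 (18.6 against 60.2 FPKM), Hormad1 and Piwil2 of 48 h cells were still below their 0 h –dox values, Smc1b was close to its own, and Sycp3 was above it.

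Among 0 h cells, where the calls were in the other direction, no member was higher with dox (3.62% of all genes) and Stra8 (3.21-fold), Hormad1 (2.73-fold) and Smc1b (2.12-fold) were lower, 3 of 10 against 5.61%. From 24 h no member was higher (2.87%) and Stra8 alone was lower (2.21-fold, with 3.40% of all genes). From 96 h none was higher (6.67%) and Stra8 (9.14-fold), Mael (3.61-fold) and Stag3 (2.70-fold) were lower, against 11.1%. The median difference of the 10 was -0.48, 0.10, 1.13 and -0.69 from 0, 24, 48 and 96 h, against 0.05, 0.02, -0.02 and -0.01 over all genes at 1 FPKM. Stra8 was called lower with dox from 0, 24 and 96 h, and its values from 48 h were too low for a call. Its call from 24 h was lost with a minimum of 5 FPKM, a fold of 3 or 1 FPKM added to both values. From 96 h the calls of Stra8 and Mael were lost with a minimum of 5 FPKM or with 1 FPKM asked of both values. That of Mael was also lost with 1 FPKM added to both values, and that of Stag3 with a fold of 3. From 0 h the calls of Hormad1 and Smc1b were lost with a fold of 3, and that of Smc1b with 1 FPKM added to both values. No test of the difference between starts was possible. Markers of other cell states moved with these results, and their part was not tested. In 48 h cells 6 of 9 pluripotency markers were higher with dox (Pou5f1 204 against 72.6 FPKM), and of 12 fibroblast markers 1 was higher and 4 lower. Dox also switches on Oct4 (Pou5f1) and Sox2 transgenes, and any part of transgene RNA in their +dox values was not tested. In 96 h cells 4 of 9 pluripotency markers were higher with dox and 2 lower (Pou5f1 9.95 against 2.63 FPKM), and of the fibroblast markers 1 was higher and 7 lower (Col1a1 3.47 against 33.2 FPKM).

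**Figure D4:**
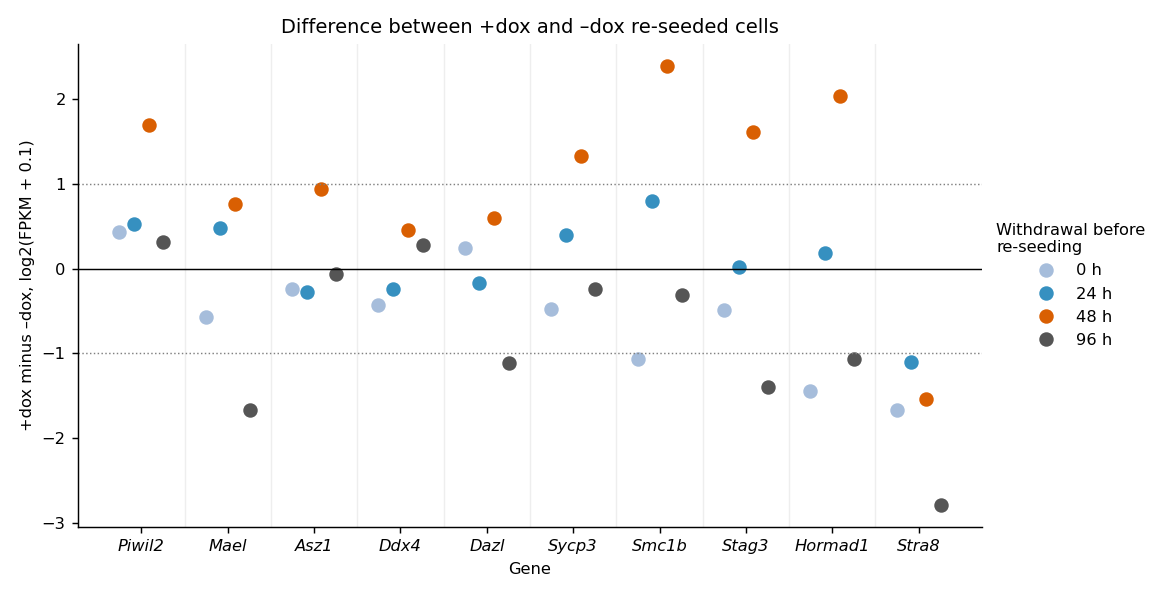
Difference between +dox and –dox cells of the same start in log2(FPKM + 0.1) for the 10 genes, with 1 point per withdrawal time before re-seeding and dotted lines at 2-fold of the values so shifted. The 48 h points (orange) lie above 0 for all genes but Stra8, that of Asz1 resting on a –dox value of 0.04 FPKM, and Stra8 lies below 0 at all 4 starts, from 48 h at values under 1 FPKM.

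Most genes of the wider germline lists were detected as well. Of 17 further piRNA pathway genes 12 reached 1 FPKM somewhere, and of 20 further meiotic chromosome genes 13 did. Among the piRNA genes the highest were Tex19.1, which represses retrotransposons (105 FPKM at 24 h), Tdrd12, a Tudor domain protein (77.4 FPKM in 24 h +dox cells), and Fkbp6 (40.4 FPKM in 0 h –dox cells). Piwil1, Piwil4, Tdrd6, Tdrd9 and Henmt1, partners in the same pathway, stayed under 1 FPKM in all 15 conditions. At 96 h of withdrawal 5 of the 17 were higher than at 0 h (Tdrd1, Tdrd5, Tdrd7, Tdrkh and Mov10l1) and 5 lower (Tdrd12, Gtsf1, Rnf17, Fkbp6 and Tex19.1), and against 24 h 4 were higher and 6 lower. Of all genes, 16.8% were higher and 16.4% lower against 0 h, and 20.5% and 16.3% against 24 h. Tdrd5 went from 0.642 FPKM at 0 h to 8.52 at 72 h, and Fkbp6 from 33.2 to 5.64. In cells from 48 h dox went with 4 of 17 higher (Tdrd12, Pld6, Gtsf1 and Fkbp6) and 1 lower (Tdrd7), against 6.56% and 6.46% of all genes.

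Among the meiotic chromosome genes the central element gene Syce2 was highest (64.6 FPKM at 48 h), followed by Hormad2 (46.7 FPKM at 24 h) and Rec8. Syce3, another central element gene, stood at 1.82, 5.93, 10.9, 10.05, 22.5, 17.8 and 7.40 FPKM over the timepoints, with its maximum at 60 h as for Mael. Dmc1, the meiotic strand exchange protein, was at 1.66 FPKM at 0 h and 5.60 at 60 h. Sycp2 and the double-strand break genes Spo11 and Mei1 stayed under 1 FPKM throughout, and Prdm9, which places those breaks, never exceeded 1.94 FPKM. At 96 h 3 of 20 were called higher and 4 lower than at 0 h (16.8% and 16.4% of all genes), and 3 and 4 than at 24 h (20.5% and 16.3%). In 96 h –dox against 0 h –dox cells, 9 of the 12 meiotic genes at 1 FPKM or more in either condition were lower, and 8 of the 10 such piRNA genes, with 21.7% of all genes. Of the 10 members 9 were, Asz1 not having reached 1 FPKM. In cells from 48 h dox went with 2 of 20 higher, Syce3 and Meiob (6.56% of all genes), and none lower (6.46%). The list medians were 0.38 for these 20 and 0.43 for the 17 piRNA genes, where that of the 10 members was 1.13. Because the members and lists were not chosen blind to these data, these medians are a description.

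**Figure D5:**
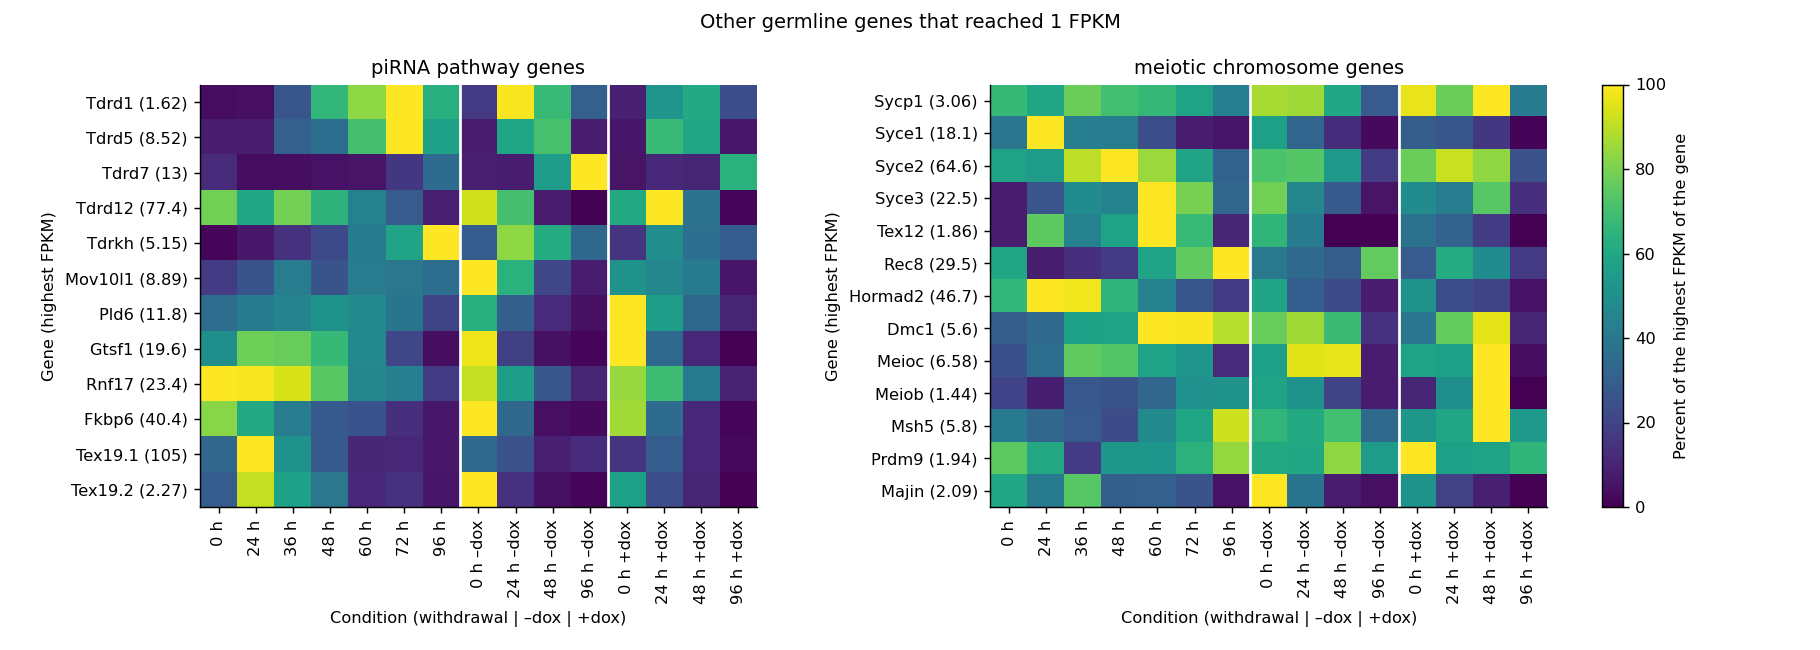
Level of each piRNA pathway gene (left) and meiotic chromosome gene (right) that reached 1 FPKM, as a percent of its own highest FPKM (printed beside the name), in the 15 conditions with white lines between withdrawal, –dox and +dox. Tdrd1 and Tdrd5 are brightest at 72 h, Fkbp6 and Tex19.2 in 0 h –dox cells, and most genes are dark in the 96 h re-seeded cells.

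Of the markers of other germ cell stages, those of spermatids and most of those of oocytes were under 1 FPKM. The 7 spermatid markers in the table reached at most 0.413 FPKM. Of 8 oocyte markers only the zona pellucida gene Zp3, up to 13.2 FPKM at 24 h, and the transcription factor gene Figla, up to 1.85 FPKM in 48 h +dox cells, reached 1 FPKM, and Zp2, Bmp15, Nlrp5, Gdf9 and Nobox stayed under it. Of 9 germ cell specification genes, 7 were called lower at 96 h than at 0 h and 5 than at 24 h, beside 3 and 6 of the 10 members and 16.4% and 16.3% of all genes. Dnd1 was called higher than at 0 h, and Tfap2c higher than at 24 h (12.3 against 2.60 FPKM) but lower than at 0 h (38.3 FPKM). Of the 9 genes, 8 were at 1 FPKM or more at 0 h and 5 at 96 h. Their sum at 0 h was 654 FPKM, with Ifitm3 alone at 349 FPKM. The naive and germline gene Dppa3 was at 168 FPKM at 0 h and 13.6 at 24 h, and Nanos2 stayed under 1 FPKM. Markers of two-cell-like cells, a rare state that turns on the Zscan4 family, summed to 5.61 FPKM over 8 genes in 24 h –dox cells and to at most 0.847 in the other 14 conditions.

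The genes known to silence the germline group were expressed throughout. Of 15 genes of PRC1.6 and its partners all reached 1 FPKM in every condition, and 1 was higher and 2 were lower at 96 h than at 0 h of withdrawal. Against 24 h, 1 was higher (Yaf2) and 4 were lower (L3mbtl2, Mga, Max and Tfdp1). The shares of all genes were 16.8% higher and 16.4% lower against 0 h, and 20.5% and 16.3% against 24 h. The E-box-binding subunit Mga stood at 40.9, 52.5, 39.6, 39.1, 26.3, 38.6 and 22.3 FPKM over the timepoints, and E2f6 between 8.63 and 13.9 FPKM. In cells from 48 h, where 5 members were higher with dox, none of the 15 was called in either direction. Mga was then at 38.9 against 23.2 FPKM. In 96 h –dox against 0 h –dox cells, where most members were lower, Mga was at 16.3 against 55.6 FPKM. L3mbtl2 was at 9.85 against 33.9 FPKM and Wdr5 at 36.8 against 94.6, while Yaf2 was higher, at 27.9 against 6.17. The median difference of the 15 there was -0.20, against -0.02 over all genes at 1 FPKM. The de novo methyltransferase Dnmt3b stood at 26.8, 259.5, 549, 586, 324, 201 and 78.7 FPKM, highest at 48 h, and Dnmt3a was highest at 36 h. Among 8 DNA methylation genes 2 were higher with dox in 48 h cells, the demethylation genes Tet1 (47.6 against 9.51 FPKM) and Tet2, where 6.56% of all genes were. Whether these levels bear on the members was not tested.

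Members shared a pattern more with some partners than with others. Over the 15 conditions, the 45 member pairs had a median Pearson r of 0.67 on log2(FPKM + 0.1), with 10 pairs over 0.8 and none under 0. Asz1 and Hormad1 had the highest (r = 0.92), then Dazl and Hormad1, Stag3 and Piwil2 (r = 0.91), and Dazl and Asz1. Stra8 had no pair above 0.43. The points share samples of 1 series and the low 96 h re-seeded conditions, so these values are a description. Of 11143 other genes that reached 5 FPKM, those most like Hormad1 were Rpl10l (r = 0.98), Gm13242 (r = 0.98) and Rnf17 (r = 0.98), the last being a piRNA pathway gene. For Dazl they were Arl14epl (r = 0.97), Tuba3a (r = 0.97) and Gm53 (r = 0.96), and for Sycp3 Gm128 (r = 0.95), Rbp7 (r = 0.91) and Dmc1 (r = 0.90), of which Dmc1 is a meiotic recombination gene. Piwil2 was matched best by Gm10244 (r = 0.97), Etv4 (r = 0.96) and Sptbn4 (r = 0.96), and Mael by Syn1 (r = 0.95), Ppm1n (r = 0.95) and Hpca (r = 0.95). Stag3 was matched closely by Smg5 (r = 0.93) and Iqcg (r = 0.93). For Ddx4 the 3 were Plvap (r = 0.93), Fbxo34 (r = 0.90) and Adad2 (r = 0.89). Smc1b was nearest to Aldh1b1 (r = 0.92), Zfand1 (r = 0.92) and Gm4924 (r = 0.90), Asz1 to Tuba3a (r = 0.96), Nlrp4f (r = 0.95) and Pias2 (r = 0.94) and Stra8 to Nelfcd (r = 0.83), 9130221H12Rik (r = 0.82) and Sh2b1 (r = 0.80), the weakest set. By Spearman's rho, 2 of these 3 genes remained among the nearest 3 for Dazl and for Piwil2, at most 1 did for each of the other 8 members, and neither Rnf17 for Hormad1 nor Dmc1 for Sycp3 did.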

How the data were processed

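Polyadenylated RNA of 30 samples was sequenced. Per the paper's methods, reads were mapped to mm10 with TopHat 2.0.14 and quantified on Gencode M4 with Cuffquant and Cuffdiff of Cufflinks 2.2.1. The deposited FPKM table was made by the authors with both replicates of a condition combined in 1 value, so no replicate values and no counts are used here, and how Cuffdiff scaled the libraries is not given in the sources used here. The table also holds the authors' own calls of dynamic and dox-responsive genes, which were not used. There were 0 value columns without a group. Summed FPKM per condition ran from 603278 to 832607.

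Values were compared as deposited, in Python 3.11.15 with pandas 2.3.3 and numpy 2.4.6. A call needed a ratio of at least 2 and a higher value of at least 1 FPKM, the fold and minimum of the study's methods, and list medians used log2(FPKM + 0.1). The calling step was run on simulated data with changes larger than the cut, in genes above 5 FPKM. That run does not bear on calls near a ratio of 2 or at low FPKM. The median-ratio factors of the 15 conditions, over 14518 genes above 0 in all, lay between 0.990 and 1.03. No difference could be tested. Counts of members stand beside the share called among genes at 1 FPKM or more in either condition, which could pass the call. The plan named the share of the whole table, which is lower. Genes named are the 10 members, the genes of 12 lists (piRNA pathway, meiotic chromosome, mitotic cohesin, germ cell specification, PRC1.6, DNA methylation, retinoic acid response, and markers of pluripotent cells, fibroblasts, spermatids, oocytes and two-cell-like cells), and per member the 3 genes with the highest Pearson r among those reaching 5 FPKM, of which 1 is not reported here. The baseline of 24 h was added after the fibroblast markers were seen. Members and lists were chosen with earlier results of these data known. Of the list genes, 4 (Majin, Meikin, Meioc and Terb1) were found under an older symbol through RefSeq synonyms, and Prm2 was not analysed here. Gene positions are from Gencode M21 on mm10, and promoters from RefSeq (GRCm38.p6). Alternatives were other folds, minimums, pseudocounts, a median-ratio scaling, Spearman's rho and the 24 h baseline.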

Additional observations from a re-analysis of the deposited data

Results flagged for a closer look

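Several members differed in opposite directions between starts of the same contrast. Each is 1 combined value per condition, and none of these differences between starts was tested. The ratio of +dox to –dox cells was 0.471 for Smc1b from 0 h and 5.56 from 48 h. For Hormad1 it was 0.366 from 0 h and 4.54 from 48 h. Stag3 had a ratio of 3.08 from 48 h and 0.37 from 96 h. With a fold of 3, the calls of Smc1b and Hormad1 from 0 h and of Stag3 from 96 h were lost. With a minimum of 5 FPKM, that of Hormad1 from 48 h was lost.

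The ratio of –dox cells to the timepoint before re-seeding also changed side. For Ddx4 it was 5.24 from 0 h, 4.0 from 24 h and 0.359 from 96 h. Mael had 9.25 from 0 h, 0.331 from 48 h and 0.435 from 96 h. Sycp3 had 5.69 from 24 h and 0.169 from 96 h. For Stag3 the ratio was 5.06 from 0 h and 0.38 from 48 h, and for Piwil2 it was 4.58 from 0 h and 0.263 from 96 h. The 0 h values rest on the timepoint with high fibroblast markers, whose part was not tested.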

How the results depend on the processing

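No paired analysis was possible because the table gives 1 combined value per condition, and for the same reason no replicate could be left out. Of the 34 counts of members, all stayed within 1.5 times of the value given under median-ratio scaling, where Stag3 at 96 h against 0 h passed the call. The causes of the changes that follow were not tested. With no minimum, and likewise with a minimum of 0.1 FPKM, the members lower with dox were 1 from 48 h and 5 from 96 h, and those lower in –dox cells than at 96 h of withdrawal were 8. A minimum of 5 FPKM left 1 lower at 24, 36 and 48 h against 0 h, 1 higher at 36, 48 and 60 h and 0 higher at 96 h, where Ddx4 and Stra8 dropped out. It left 0 lower with dox from 24 h, 1 from 96 h, and 1 lower in –dox cells than at 96 h. Asking 1 FPKM of both values left 1 lower at 24, 36 and 48 h, 0 at 96 h, 1 lower with dox from 96 h, 3 lower in –dox cells than at 48 and at 96 h, and 4 and 5 below the 0 h –dox level in the 48 and 96 h –dox cells. Adding 1 FPKM to both values gave 1 lower at 24 and 48 h, 1 higher at 36 h, 0 higher at 96 h, 0 lower with dox from 24 h, and 2 lower in –dox cells than at 96 h. A fold of 1.5 gave 4 higher at 36 and 60 h, 5 at 72 h, 2 lower at 60 h and 5 at 96 h. It gave 1 higher with dox from 24 h, 2 lower in 0 h –dox cells than at 0 h, 1 higher in –dox cells than at 48 h, and 1 above the 0 h –dox level in the 24 h –dox cells. A fold of 3 gave 1 higher and 1 lower at 24 and 36 h, 0 higher at 96 h, 1 lower with dox from 0 h and 0 from 24 h. Against the timepoint before re-seeding it gave 0, 1, 3 and 3 lower from 0, 24, 48 and 96 h, and 3 below the 0 h –dox level in the 24 h –dox cells. The 24 h baseline, chosen after seeing the data, gave 1 higher at 36 and 48 h, 2 lower at 60 h and 6 lower at 96 h. The 5 members higher with dox from 48 h and the 5 higher in 0 h –dox cells than at 0 h stayed within 1.5 times in count under each setting, although Hormad1 and Sycp3 each lost the call with dox under some of them. The median differences kept their sign under the other pseudocounts and the scaling, though with a pseudocount of 1 FPKM that of dox from 96 h was -0.19.

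The main limits are the absent replicate values and the unknown read counts. A ratio of a few FPKM can therefore not be told from replicate spread, and values of Asz1 and Hormad1 near 0 rest on very few reads.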
